A study of Mus musculus with 4 samples.

Results

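Bex1, Bex2, Limd2, Chst1 and Zdhhc5 are 5 mouse genes that were chosen because they read higher on the arrays labelled Ezh2-null than on those labelled wild type in both sources of cells. Every probe whose gene name in the scanner files equals one of these symbols was taken, which gave 9 probes of 39418 and 5 genes of 31703. The genotype differences of these genes are therefore the values that chose them, and they are described here without a test. RNA was measured in erythrocyte/megakaryocyte progenitors (MEP), the shared precursors of red cells and of megakaryocytes, which shed platelets, on a C57BL/6 background. The groups were fetal liver MEP at E14.5, Ezh2-null or else wild type, and adult bone marrow MEP of those same genotypes, with 1 one-colour array each. With 1 array per group no group has a replicate. The labels do not say how the cells were purified, the number or sex of the animals, or how and where Ezh2 was deleted.

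Ezh2 is the catalytic subunit of Polycomb repressive complex 2, which methylates histone H3 and keeps many developmental genes silent. None of the 5 genes is a classical gene of the red cell or megakaryocyte programme. Bex1 and Bex2 are small X-linked adaptor proteins first described in brain; Bex1 binds the p75 neurotrophin receptor in rodent cells, and human BEX2 has been found in a complex with LMO2, a partner of GATA factors. Limd2 is a small protein made of a LIM domain, and human LIMD2 binds integrin-linked kinase. Chst1 is a Golgi enzyme that adds sulfate to galactose in keratan sulfate. Zdhhc5 is a palmitoyltransferase of the plasma membrane, which attaches fatty acid chains to cysteines of other proteins.

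The probe sequences below are 60 bases long, are given with mm9 coordinates as in the scanner files, and are named by the base of the transcript at which they start. They are shown because each is a probe on which the agreement within a gene turns: the Bex1 probe reaches over an ATG (capitals), the Limd2 probe was dark on every array, and the Zdhhc5 probe carried the difference in both sources.
Bex1 base 240, chrX:132674125-132674184, plus strand: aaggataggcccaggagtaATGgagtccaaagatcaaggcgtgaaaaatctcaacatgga
Limd2 base 433, chr11:106020027-106020086, minus strand: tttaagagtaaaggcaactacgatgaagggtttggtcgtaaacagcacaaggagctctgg
Zdhhc5 base 2627, chr2:84530535-84530594, minus strand: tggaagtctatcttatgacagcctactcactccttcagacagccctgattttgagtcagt

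The Ezh2 probe, on mm9 chromosome 6, read 194 on the null-labelled and 33.5 on the wild-type-labelled fetal liver array, and 70.0 on the null-labelled and 35.4 on the wild-type-labelled bone marrow array. It was thus 5.79-fold and 1.98-fold higher on the null-labelled arrays. Whether this probe lies inside the deleted part is not given, so it does not check the genotypes, and every direction below rests on the labels. Signals are processed intensities scaled so that the 75th percentile of the probes above background on all 4 arrays is equal. They compare arrays for 1 probe and not 1 probe with another. In RNA from a cell population, fewer cells of a type and less RNA per cell cannot be told apart.

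Of the 12 MEP markers, 12 and 10 were well above background on the null-labelled and wild-type-labelled fetal liver arrays, and 11 on each bone marrow array. Gata1, Klf1 and Epor were bright on all 4 arrays, and Itga2b was well above background on the null-labelled fetal liver array alone. Between 39.0% and 46.4% of the probes on an array were well above background. All 4 arrays lay on 1 slide scanned at 1 time. The 2 bone marrow arrays correlated at 0.982 over log2 signals of 12880 probes, and the 2 fetal liver arrays at 0.937.

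Bex1, read by its brighter probe (base 765, chrX:132674650-132674709), had a signal of 901 ± 90.1 on the null-labelled and 86.3 ± 9.64 on the wild-type-labelled fetal liver array. In bone marrow it read 487 ± 48.7 on the null-labelled and 24.4 ± 3.47 on the wild-type-labelled array. These errors, and those below, are the spot error that the scanner software reports for 1 spot, and they hold no variation between animals or arrays. Both null-labelled arrays were above both wild-type-labelled arrays, by 10.4-fold for fetal liver cells and by 19.9-fold for bone marrow cells.

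Bex2 (base 583, chrX:132601237-132601296) read 522 ± 52.3 on the null-labelled and 49.8 ± 6.69 on the wild-type-labelled fetal liver array. In bone marrow it read 156 ± 15.7 on the null-labelled array and 2.47 on the wild-type-labelled array, where it was not well above background. The order of the arrays was that of Bex1. The fetal liver difference was 10.5-fold, and that of bone marrow at least 14.0-fold. Where a probe was dark on 1 array, the bound is the bright signal over the higher of its own dark signal and the lowest signal well above background on that array. Where its own dark signal was the higher, the bound equals the measured ratio, and spot error could lower it.

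Limd2 (base 1091, chr11:106019369-106019428) read 1118 ± 112 on the null-labelled fetal liver array, against 65.9 ± 8.26 on the wild-type-labelled one. In bone marrow it read 476 ± 47.7 on the null-labelled array and 6.86, not well above background, on the wild-type-labelled array. The fetal liver difference was 17.0-fold and that of bone marrow at least 42.8-fold. Both null-labelled arrays were again above both wild-type-labelled ones.

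Chst1 (base 2526, chr2:92455254-92455313) read 173 ± 17.6 on the null-labelled array and 4.73 on the wild-type-labelled array in fetal liver. It read 401 ± 40.1 on the null-labelled array and 11.8 on the wild-type-labelled array in bone marrow. It was dark on both wild-type-labelled arrays and bright on both null-labelled ones, so its differences are bounds: fetal liver at least 8.97-fold, bone marrow 34.0-fold. In bone marrow its dark signal was above the lowest signal well above background on that array (11.1). The 34.0-fold is therefore the measured ratio, and spot error could lower it.

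Zdhhc5 (base 2627) had the smallest differences. It read 139 ± 14.2 on the null-labelled and 23.3 ± 4.75 on the wild-type-labelled fetal liver array. In bone marrow it read 141 ± 14.2 on the null-labelled and 16.8 ± 2.84 on the wild-type-labelled array. It was above background on all 4 arrays, and the null-labelled signal was 5.97-fold higher among fetal liver cells and 8.39-fold higher among bone marrow cells. After normexp background correction, the fetal liver difference of Zdhhc5 was 0.72 on the log2 scale, under 2-fold.

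**Figure D1:**
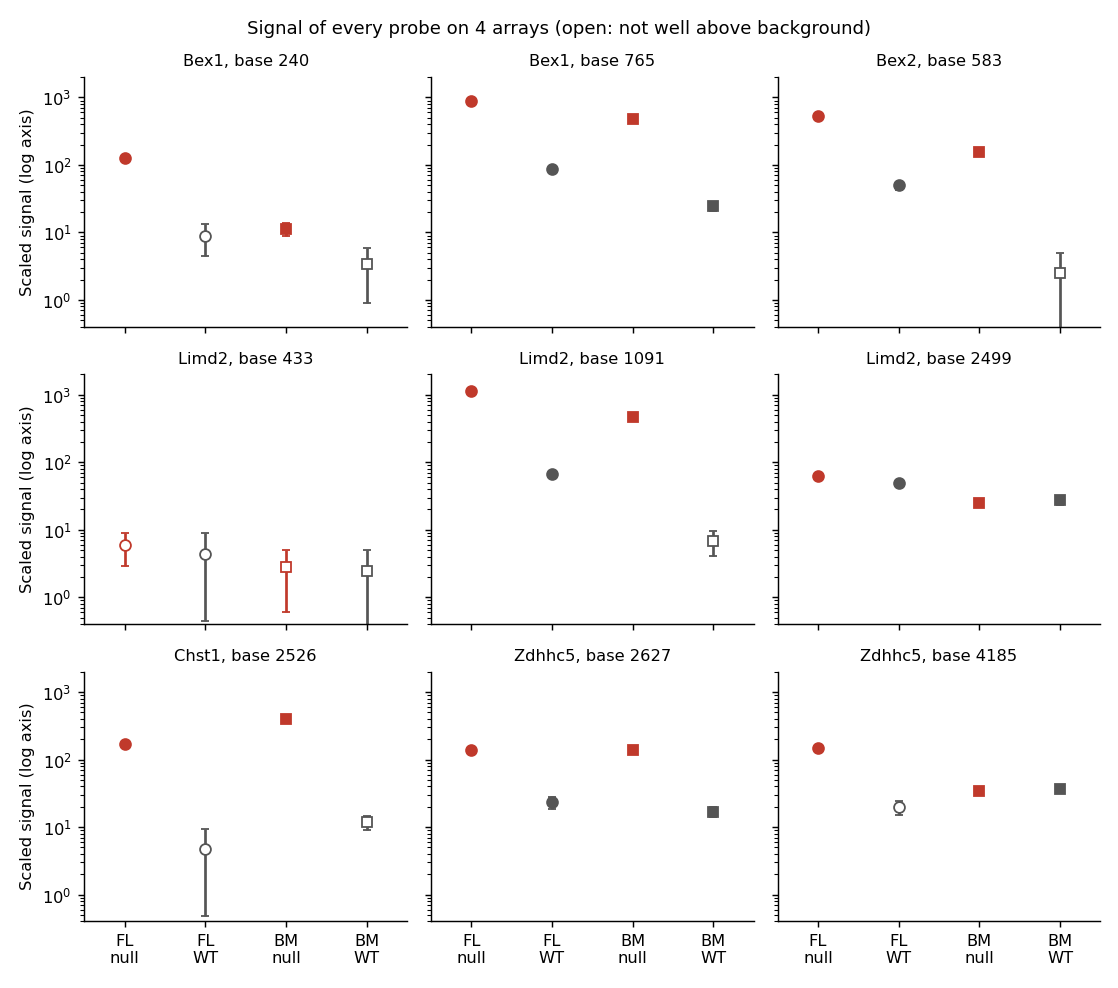
Scaled signal (log axis) of each of the 9 probes on the 4 arrays (FL, fetal liver; BM, bone marrow; null and WT as labelled), with the scanner software's spot error as bars and open symbols for signals not well above background. Of the 9 probes, the Limd2 probe at base 433 is open on all 4 arrays, and the Limd2 probe at base 2499 lies within 2-fold between genotypes in each source.

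By the brightest probe, 5 of the 5 genes reached 2-fold, with the null-labelled array higher, in fetal liver, where 15.4% of 16257 genes were, and 5 of 5 in bone marrow, where 4.54% of 15279 were. In both sources together, 0.959% of 13868 genes were at least 2-fold higher. None of the 5 genes was at least 2-fold lower, a share of 13.3% over all genes in fetal liver, 7.64% in bone marrow and 0.599% in both. The genes were chosen on these same differences, so nothing is read from the counts. The brightest probe was also picked by a mean that includes the null-labelled arrays, where these genes were high. Ranked by difference among the 16257 genes of fetal liver, with bounds entered at their value, Limd2 stood at 18, Bex2 at 95, Bex1 at 96 and Zdhhc5 at 365. Among the 15279 genes of bone marrow Bex1 stood at 7 and Zdhhc5 at 38. No such rank is given for the differences known only as bounds. Ranked by the smaller of the 2 differences, Limd2, Bex2, Bex1 and Chst1 took ranks 1 to 4 of 13868 genes, Chst1 by a bound. With bounds entered at their value, BC062258 (3.01 on the log2 scale) stood at rank 5, Mical1 at rank 6 and Zdhhc5 (2.58) at rank 7. The other genes nearest in this list were Mical1, an actin-oxidising enzyme with a LIM domain, at 2.61 or more, Aldoc, a glycolytic aldolase, at 2.53 or more, Stambpl1, a deubiquitinating enzyme, at 2.41, and Tpm2, a tropomyosin, at 2.27 or more. Those given as "or more" were dark on the wild-type-labelled bone marrow array, so their order is not known.

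**Figure D2:**
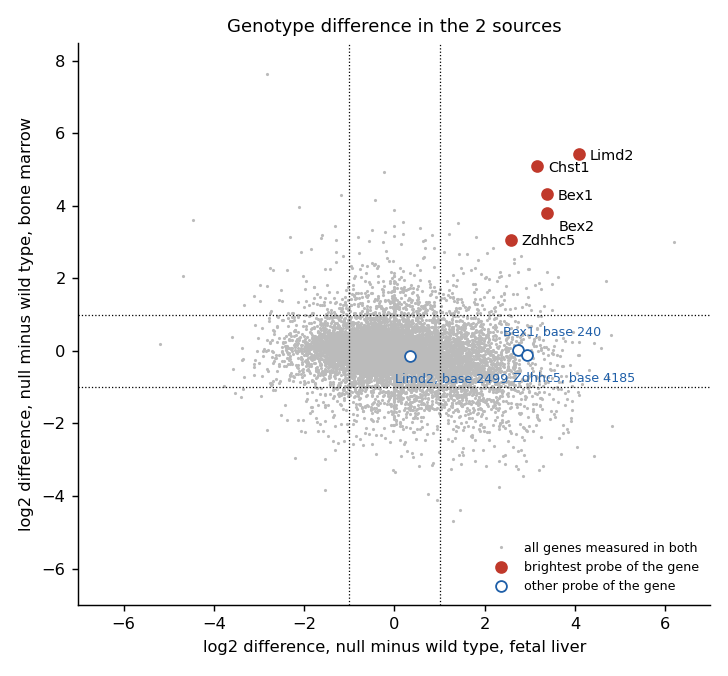
Null minus wild-type log2 difference in fetal liver (x) and bone marrow (y) for all genes measured in both (grey), the brightest probe of each of the 5 genes (red) and their other measured probes (blue, open); dotted lines mark 2-fold. The brightest probes lie between 2.58 and 4.09 in fetal liver and between 3.07 and 5.42 in bone marrow, and the 3 other probes lie near 0 in bone marrow, that of Bex1 as a lower bound.

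Probes of 1 gene did not all follow its brightest probe. Of the 9 probes, 8 were measured in each source. In fetal liver, 7 of these 8 differed by 2-fold or more, all higher on the null-labelled array, and in bone marrow 5 of 8 did. The 4 probes that did not stand for their gene included 2 that were at least 2-fold higher in fetal liver and 0 that were in bone marrow. For genes at least 2-fold higher by their brightest probe, other measured probes were also at least 2-fold higher in 37.1% of 647 cases in fetal liver and in 27.4% of 113 in bone marrow, with the 5 genes included. The brightest probe was picked with the null-labelled arrays in its mean, so these shares are a description. On the wild-type-labelled bone marrow array alone, the Limd2 probe at base 2499 and the Zdhhc5 probe at base 4185 read brighter than the probes standing for their genes.

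The second Bex1 probe, at base 240, read 128 ± 13.1 on the null-labelled array and 8.81 ± 4.38, not well above background, on the wild-type-labelled array in fetal liver. In bone marrow it read 11.3 ± 2.46 on the null-labelled array and 3.35 ± 2.46, not well above background, on the wild-type-labelled array. It was at least 6.65-fold higher in fetal liver. In bone marrow its signal was close to the floor, and the bound was 1.01-fold.

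Limd2 had the most divided probes. The probe at base 433 was not well above background on any array, with signals of 5.90 and 4.42 on the null-labelled and wild-type-labelled fetal liver arrays and 2.84 and 2.48 on the null-labelled and wild-type-labelled bone marrow arrays. The probe at base 2499 (chr11:106017961-106018020) read 61.7 ± 6.84 on the null-labelled and 48.9 ± 6.56 on the wild-type-labelled fetal liver array, and 24.8 ± 3.36 on the null-labelled and 27.2 ± 3.70 on the wild-type-labelled bone marrow array. Its log2 differences were 0.34 in fetal liver and -0.13 in bone marrow. The difference of Limd2 thus rests on 1 of its 3 probes, picked as brightest by a mean that includes the null-labelled arrays. RefSeq lists 3 transcripts for Limd2, and which of them each probe reads was not tested.

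The second Zdhhc5 probe, at base 4185 (chr2:84528572-84528631), read 150 ± 15.3 on the null-labelled array and 19.6 ± 4.66, not well above background, on the wild-type-labelled array in fetal liver. In bone marrow it read 34.2 ± 4.02 on the null-labelled and 37.0 ± 4.38 on the wild-type-labelled array. The 2 Zdhhc5 probes agreed in fetal liver, where this one was 7.68-fold higher. That is the measured ratio, since its dark signal lay just above the floor of 19.3. In bone marrow the 2 probes differed, and the one at base 4185 stood at -0.11 on the log2 scale.

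**Figure D3:**
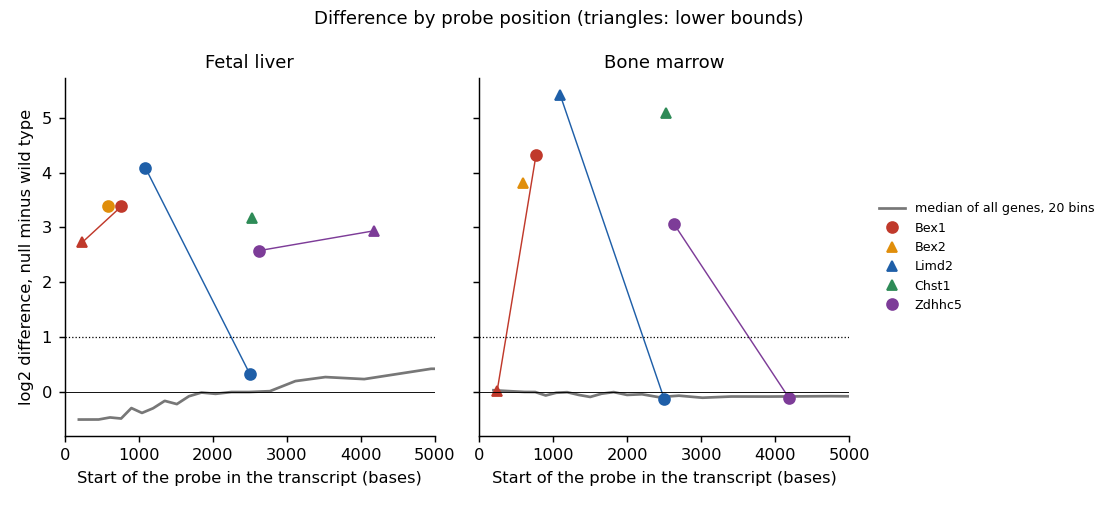
Null minus wild-type log2 difference of each measured probe (points, or triangles for lower bounds; colour gives the gene, and lines join probes of 1 gene) by the start of the probe in the transcript, with the median of all genes in 20 bins of start position (grey). In bone marrow the second probes of Bex1, Limd2 and Zdhhc5 lie at 0.02 (a lower bound), -0.13 and -0.11.

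Over all genes, the fetal liver difference moved with the place of the probe, with a median of -0.50 for probes starting at bases 3 to 380 and 0.46 for those in the bin furthest along the transcript. In bone marrow the medians of the first and last bins were 0.03 and -0.14. The part of this trend in the probe disagreements was not tested. With the trend removed from the brightest probes, all 5 genes remained at least 2-fold higher in both sources. The trend is much smaller than the differences that chose the genes, so this outcome was fixed in advance and nothing is read from it.

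Probe coordinates raise a separate question about Bex1. The scanner files place both Bex1 probes on the plus strand of chromosome X beside the probe of Bex4, a close relative, whose start lies 160 bases after that of the base 765 probe. RefSeq (GRCm38.p6) places Bex1 apart from Bex4. The probes are Bex1 by gene name and by accession, and Bex1 and Bex4 signals differed in their order. Bex4 read 359 and 326 on the null-labelled and wild-type-labelled fetal liver arrays, and 1030 and 423 on the null-labelled and wild-type-labelled bone marrow arrays, so its lowest signal was on the wild-type-labelled fetal liver array, where the lowest Bex1 signal was on the wild-type-labelled bone marrow array. No genome was used here to match the probes, so the Bex1 place is that of the files only. Bex1 and Bex2 probes share no run of 15 bases.

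Between sources, the 5 genes did not move together. Among null-labelled arrays, bone marrow over fetal liver was -1.74 on the log2 scale for Bex2, -1.23 for Limd2, -0.89 for Bex1, 0.02 for Zdhhc5 and 1.21 for Chst1. Among wild-type-labelled arrays it was -2.16 or lower for Bex2, -2.57 or lower for Limd2, -1.82 for Bex1 and -0.48 for Zdhhc5, with Chst1 dark on both. At least 2-fold lower in bone marrow were 2 of 5 genes among null-labelled arrays, where 26.9% of all genes were, and 3 of the 4 genes measured among wild-type-labelled arrays, where 31.9% were. At least 2-fold higher were 1 gene of 5 (Chst1) among null-labelled arrays, where 10.4% were, and 0 among wild-type-labelled ones, where 13.1% were. These counts depended on scaling: with spike-in scaling 0 and 1 of the 5 were lower in bone marrow among null-labelled and wild-type-labelled arrays.

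The genes most like each of the 5 across the 4 arrays were found by the distance between their 4 log2 signals, over 17668 genes. Signals were first raised to the highest array floor, 19.3, and then centred. Signals below that floor therefore count as equal, which brings genes that were dark on the same array closer together. The nearest to Bex1 were Limd2 (0.56), Bex2 (0.94) and Atp2a3 (1.49), a calcium pump of the endoplasmic reticulum. Those nearest to Bex2 were Bex1 (0.94), Atp2a3 (0.97) and Mical1 (0.98), and to Limd2 they were Bex1 (0.56), Bex2 (1.24) and Atp2a3 (1.98). Chst1 lay nearest to Zdhhc5 (1.36), Stambpl1 (1.44) and Vim (1.71), an intermediate filament protein. Zdhhc5 lay nearest to Gm3992 (0.53), Tmem50b (0.54) and Vim (0.62). The distance covers 4 arrays only and is a description.

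Relatives of the 5 genes were mostly within 2-fold. Over all genes the shares at least 2-fold higher and lower were 15.4% and 13.3% in fetal liver, and 4.54% and 7.64% in bone marrow. Of the list genes at least 2-fold apart, 11 of 29 in fetal liver and 6 of 19 in bone marrow kept that size and direction with normexp, and 17 of 29 in fetal liver did with spike-in scaling. Of the 10 other Bex and Tceal genes on the array, small proteins of 1 family, most of them X-linked and Bex6 on chromosome 16, 5 were measured in fetal liver, with 1 at least 2-fold higher and 0 lower. In bone marrow 7 were measured, with 2 higher and 0 lower. Bex4 was 1.28 higher on the log2 scale in bone marrow and 0.14 in fetal liver, a value that turned negative with the 75th percentile over all probes and with normexp. Bex6 was 1.40 higher in bone marrow. Tceal9 was 1.83 higher in fetal liver and -0.56 in bone marrow.

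The list of Bex partners held the neurotrophin receptor and the LMO2 complex. Of its 9 genes measured in fetal liver, 2 were higher and 0 lower, and of 8 in bone marrow 0 were higher and 1 lower. Gata2, a transcription factor of early progenitors, was at least 1.39 higher in fetal liver and -1.14 in bone marrow on the log2 scale. Nhlh1, a basic helix-loop-helix factor, was 1.67 higher in fetal liver and -0.64 in bone marrow. With its probe nearest the 3' end these values were 0.07 and 0.29.

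Of the LIM domain genes other than Limd2, 2 of 23 measured were higher and 5 lower in fetal liver, and 6 of 26 higher and 4 lower in bone marrow. Mical1 was higher in both sources (2.80 and at least 2.61). Csrp2, a cytoskeletal LIM protein, was -1.13 in fetal liver and at least 2.61 higher in bone marrow. Wtip, also a LIM protein, was at least 2.92 higher in fetal liver and -1.26 in bone marrow. In the integrin-linked kinase complex, which holds the partner of human LIMD2, 1 of 6 measured genes was higher in fetal liver (Rsu1, at least 1.35) and 0 in bone marrow, with 0 lower in either.

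Other carbohydrate sulfotransferases included 1 higher and 2 lower of 13 measured in fetal liver, and 1 higher and 1 lower of 12 in bone marrow. Hs2st1, which sulfates heparan sulfate, was 1.13 higher in fetal liver and -0.61 in bone marrow, and Chst10 was 1.23 higher in bone marrow. Of the genes that build the keratan sulfate chain and supply its sulfate, 1 was higher and 1 lower of 4 measured in fetal liver and 1 higher of 5 in bone marrow. B4galt1, which adds galactose to growing chains, read 1.21 higher in fetal liver and 1.10 in bone marrow on the log2 scale. With all its probes averaged these values were 0.17 and 0.72, and with normexp 0.76 and 0.99, under 2-fold in both.

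Of the other ZDHHC palmitoyltransferases, 3 of 19 measured were higher and 6 lower in fetal liver, and 2 of 15 higher and 1 lower in bone marrow. Zdhhc9 was 3.28 higher in fetal liver and 0.77 in bone marrow. With all its probes averaged these values were 1.31 and 0.52. Zdhhc22 was -1.28 in fetal liver and at least 2.74 higher in bone marrow. Of the cofactors and the enzymes that remove palmitate, 2 of 8 were higher and 2 lower in fetal liver and 0 of 8 in bone marrow. Golga7b, a cofactor of Zdhhc5, was 1.08 higher in fetal liver and -0.41 in bone marrow. With all its probes averaged these values were 0.24 and -0.28. With the 75th percentile over all probes the fetal liver value was 0.91, under 2-fold. Medians of the relatives in fetal liver were 0.11 for Bex and Tceal, -0.29 for LIM, -0.09 for sulfotransferase and -0.36 for ZDHHC genes, beside -0.14 over all genes. In bone marrow they were 0.33, 0.01, -0.10 and -0.21 in the same order of lists, beside -0.04 over all genes.

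**Figure D4:**
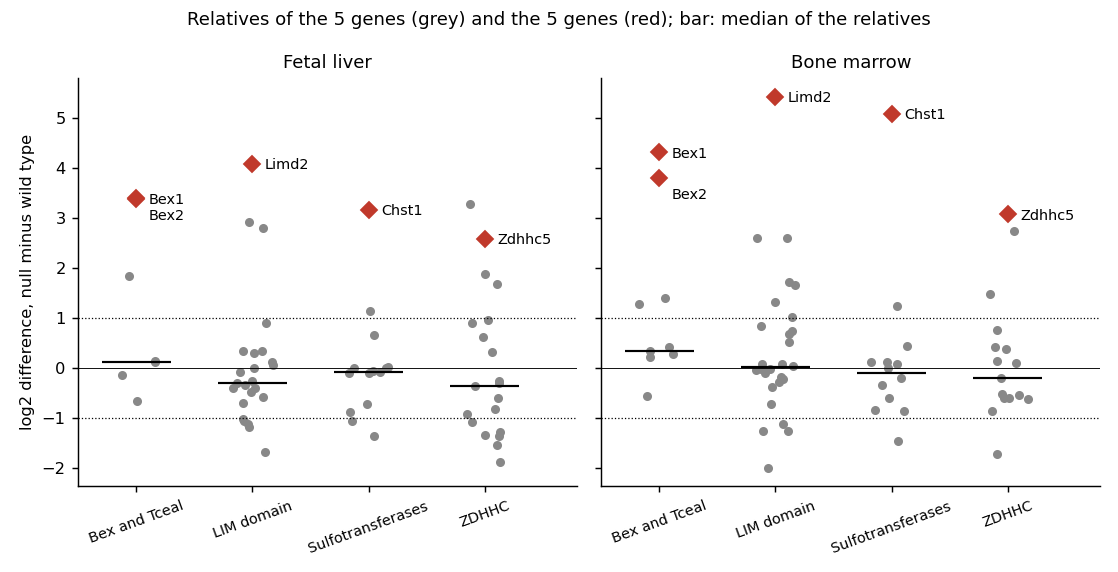
Null minus wild-type log2 difference of the relatives of each gene (grey points, median as a bar) and of the 5 genes (red diamonds) in fetal liver (left) and bone marrow (right), with dotted lines at 2-fold. Of the relatives drawn, each by its brightest probe, Zdhhc9 at 3.28 in fetal liver lies above Zdhhc5 at 2.58. With all probes averaged Zdhhc9 stood at 1.31 there and Zdhhc5 at 2.76.

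The genes whose probes lie next to the 5 on the chromosome are given as a description, since the 5 were chosen for large differences. Of 26 such genes, up to 3 on each side and without the 5 genes themselves, 16 were measured in each source. In fetal liver 3 were higher and 3 lower, with a median of 0.10, where 15.4% and 13.3% of all genes were. In bone marrow 3 were higher and 1 lower, with a median of 0.10, where 4.54% and 7.64% of all genes were. Nothing is read from counts this small. Ccdc47, near Limd2, was 1.94 higher in fetal liver and 0.23 in bone marrow. Arxes2, near Bex2, read 27.5 and 4.31 on the null-labelled and wild-type-labelled fetal liver arrays and 30.9 and 2.49 on the null-labelled and wild-type-labelled bone marrow arrays, dark on both wild-type-labelled ones. Its log2 differences are therefore bounds, at least 0.51 in fetal liver, under 2-fold, and at least 1.48 in bone marrow. With normexp these bounds were 0 and 0.55. The neighbours of Bex1 are those of the place given in the files, and they include Bex4, which was counted as higher in bone marrow.

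Bex1 and Bex2 are shown with the 250 bases before their starts, from RefSeq (GRCm38.p6), because they are relatives on 1 chromosome with the same order of arrays; capitals mark matches to the motifs searched.
Bex1, chrX:136215514-136215763, minus strand: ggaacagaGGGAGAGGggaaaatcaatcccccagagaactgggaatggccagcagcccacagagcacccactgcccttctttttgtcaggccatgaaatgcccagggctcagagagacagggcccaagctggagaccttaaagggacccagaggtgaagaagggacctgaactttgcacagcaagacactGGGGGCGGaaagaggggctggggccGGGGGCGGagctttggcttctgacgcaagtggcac
Bex2, chrX:136068237-136068486, minus strand: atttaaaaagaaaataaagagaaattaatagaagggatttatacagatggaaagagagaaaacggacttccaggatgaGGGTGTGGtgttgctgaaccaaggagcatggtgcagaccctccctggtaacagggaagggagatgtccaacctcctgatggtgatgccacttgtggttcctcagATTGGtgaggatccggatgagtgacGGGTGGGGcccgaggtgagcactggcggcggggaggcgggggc

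The motifs were the GATA motif (AGATAA and its variant TGATAA, besides the forms AGATAG and also TGATAG), the CACC box CCNCNCCC, the GC box GGGCGG and CCAAT, on both strands, with overlapping matches counted. Of 32851 promoters of the same length, 26.5%, 45.9%, 32.7% and 33.8% held them in that order. The Bex1 promoter held 3 CACC box and 2 GC box matches, each GC box lying within a CACC box match, and Bex2 held 2 CACC box matches and 1 CCAAT match. Neither held the GATA letters in this window. The promoters differed in CpG number, from 1 in Chst1, 4 in Bex1 and 7 in Bex2 to 39 in Zdhhc5 and 48, 33 and 6 in the 3 Limd2 entries, where the median promoter held 6.

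Lymphoid markers moved with genotype in bone marrow, with 8 of 10 measured at least 2-fold higher and 0 lower. Shares over all genes were 4.54% and 7.64%. Of granulocyte and macrophage markers 0 of 5 measured were 2-fold apart there, and of mast cell, basophil and eosinophil markers 0 of 3. Of neuronal and neuroendocrine markers 0 of 5 were, and of endothelial and stromal markers 0 of 5. Among hepatocyte markers 1 of 4 was higher, and among stem and multipotent progenitor markers 1 of 2. Of 13 lymphoid markers, 10 were well above background on the null-labelled and 4 on the wild-type-labelled bone marrow array, with summed signals of 4233 and 234. In fetal liver 5 and 6 were well above background on the null-labelled and wild-type-labelled arrays, with sums of 236 and 415. Dntt, a lymphoid polymerase, and Vpreb1, a surrogate light chain of early B cells, were picked after their values were seen and read 1381 and 2202 on the null-labelled and 76.6 and 10.6 on the wild-type-labelled bone marrow array. Rag1, Il7r and Ebf1 were dark on all 4 arrays. In fetal liver, the null-labelled array was 2-fold or more higher for 0 of 6 measured lymphoid markers and lower for 1. The part of lymphoid cells in the differences of the 5 genes was not tested in either source.

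Of 10 neuronal and neuroendocrine markers, 5 (Stmn2, Nefl, Nefm, Chgb and Uchl1) were dark on all arrays, and nearly all of the summed signal came from Snap25. The other 9 summed to 585 and 461 on the null-labelled and wild-type-labelled fetal liver arrays and to 420 and 379 on the null-labelled and wild-type-labelled bone marrow arrays. With Snap25 the sums were 58564 and 73316, and 36796 and 37289, in the same order of arrays. Their part in the differences of the 5 genes was not tested. Hepatocyte markers summed to 183 and 718 on the null-labelled and wild-type-labelled fetal liver arrays. The brighter Xist probe, for the RNA of the inactive X chromosome, read 743 on the null-labelled and 4.45, dark, on the wild-type-labelled fetal liver array, and was dark on both bone marrow arrays. The 4 Y-linked genes looked at were dark on all 4 arrays, so they do not give the sex of any sample. Bex1 and Bex2 are X-linked, and the part of sex in their differences was not tested.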

How the data were processed

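The arrays were 1-colour Agilent arrays, and titles gave the groups. Per the labels' protocols, 250 ng of Trizol-extracted total RNA with added spike-in RNA was amplified and labelled with Cy3. Intensity values in the deposited scanner files were made by Agilent Feature Extraction 10.7.3.1, background-subtracted and detrended within the array with surrogates where low and no step between arrays, per the file headers. The authors' series table held the same intensity values rounded to 3 significant digits, on a linear scale without centring. Its column medians were 10.8 and 7.05 for null and wild-type fetal liver and 8.63 and 10.3 for null and wild-type bone marrow. Feature Extraction's deposited flags of 0 or 1 marked spots above background, saturated or outlying.

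Control and outlier spots were left out, spots of 1 probe averaged, and log2 signals scaled to an equal 75th percentile over the 12880 probes above background on all 4 arrays. The lowest scaled signal well above background was the floor, 13.0 and 19.3 for null and wild-type fetal liver and 9.98 and 11.1 for null and wild-type bone marrow. A gene dark on both of 2 arrays compared has no difference there. Each gene is represented by its brightest probe by mean log2 signal over all 4 arrays, null-labelled ones included. A difference of at least 2-fold is a description, since these values chose the genes and each group has 1 array. Within an array, the 399 probes with 10 spots had a median log2 SD of 0.0844 to 0.143. The number of arrays limits the precision.

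Names were updated through RefSeq (GRCm38.p6). The members and lists were chosen with earlier results of these data known. Genes named are the 5 with every probe, list members at least 2-fold apart, the 3 most alike, the next 5 in rank, the 3 neighbours on each side, and Ezh2 and Xist, with any other said to be picked after its values were seen. Tools were Python 3.11.15, R 4.3.3 and limma 3.58.1 (normexp, offset 50). The scripts were tested on simulated data. Alternatives covered scaling, background, the value table, the probe that stands for a gene, the filter on dim probes and, added after seeing the data, removal of the probe position trend.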

Additional observations from a re-analysis of the deposited data

Results flagged for a closer look

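The values below stand out because the null-labelled array was higher in 1 source and lower in the other. Each value in parentheses is the bone marrow genotype difference minus the fetal liver one, on the log2 scale, so a negative value is lower in bone marrow. With 1 array per group none of these differences was tested. For 10 of the 31 genes (Gata2, Wtip, Csrp2, Rsu1, Papss1, Zdhhc13, Zdhhc22, Med19, Clp1 and Vpreb1) 1 array of a pair was dark, and the value is a lower limit on the size. In 22 of the 31 genes the signs stayed opposite under all 5 scaling and background alternatives. In the other 9 they did not under at least 1 of them: spike-in scaling for Bex6, Gm4026 and Dntt, normexp for Rsu1, ENSMUST00000099700 and Med19, the 75th percentile over all probes, quantile normalization and normexp for Lmo4 and Tmx2, and all 5 for Clp1. Those alternatives did not change the probe that stands for a gene. With the probe nearest the 3' end, signs were not opposite for Nhlh1 (0.07 in fetal liver, 0.29 in bone marrow), Abhd17a (-0.14, -0.02) and Lmo4 (0.71, 2.71). Golga7b was not measured with that probe.

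Among probes of the 5 genes, the Limd2 probe at base 2499 (-0.47) and the Zdhhc5 probe at base 4185 (-3.05) had opposite signs in the sources, while the brightest probe of each gene was higher in both. Among relatives of the Bex genes and their partners these were Bex6 (1.53), Tceal9 (-2.39), Gata2 (-2.53) and Nhlh1 (-2.31). Among LIM domain and integrin-linked kinase genes they were Wtip (-4.18), Crip1 (2.21), Crip2 (2.08), Csrp2 (3.74), Lmo4 (-2.12) and Rsu1 (-1.98). Among sulfotransferase and keratan sulfate genes they were Hs2st1 (-1.74) and Papss1 (1.59). Among palmitoylation genes they were Zdhhc4 (1.78), Zdhhc6 (-2.51), Zdhhc7 (1.47), Zdhhc13 (-3.40), Zdhhc16 (1.65), Zdhhc22 (4.03), Golga7b (-1.49), Ppt2 (2.20) and Abhd17a (1.39). Among chromosomal neighbours they were Strada (2.35), Gm4026 (0.36), ENSMUST00000099700 (-0.47), Selenoh (1.97), Tmx2 (-0.35), Med19 (-2.69), Clp1 (-1.49) and Serping1 (0.51). The lymphoid markers Dntt (4.60) and Vpreb1 (10.4) were higher on the null-labelled array in bone marrow and lower in fetal liver.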

How the results depend on the processing

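Over 6 scaling, background and value-table alternatives, 59 of 60 differences of the 5 genes stayed at least 2-fold higher on the null-labelled array, and the exception was Zdhhc5 in fetal liver with normexp (0.72). Sizes moved more: with normexp 4 of the 5 genes were higher in both sources, Chst1 in fetal liver stood at 1.02, Bex2 in bone marrow at 1.998 and Limd2 there at 3.22, and with all probes averaged Limd2 stood at 1.61 in fetal liver and 2.06 in bone marrow. With the probe nearest the 3' end, Limd2 (-0.13) and Zdhhc5 (-0.11) in bone marrow reversed, which left 3 genes higher there, and Limd2 in fetal liver stood at 0.34. Requiring signal well above background on both arrays left 2 genes in bone marrow, by construction, since 3 were dark on the wild-type-labelled array. Genes higher in fetal liver, bone marrow and both numbered 2501, 694 and 133, against 1569, 423 and 48 with that requirement, 3845, 1807 and 322 with no filter, and 794, 172 and 16 with normexp. With spike-in scaling they numbered 3766 in fetal liver and 201 in both. The share of higher among fetal liver calls was 53.6%, and 41.8% with the 75th percentile over all probes, 81.9% with spike-in scaling and 42.8% with normexp; the all-gene median was -0.14, -0.31, 0.22 and -0.35 in that order. Genes of the 5 lower in bone marrow than fetal liver among null-labelled arrays numbered 2, and 1 with the 75th percentile over all probes, 1 with the median, 0 with spike-in scaling and 4 with all probes averaged. Among wild-type-labelled arrays they numbered 3, and 1 with spike-in scaling and 1 with signal required on both arrays. Those higher in bone marrow numbered 1 among null-labelled arrays, and 0 with normexp, and 0 among wild-type-labelled arrays, and 1 with no filter. Other causes of these shifts were not tested. No paired analysis was possible because each group has 1 array and the labels give no replicate numbers to pair by. An additive fit of genotype and source over the 4 arrays was not run, since these differences chose the genes. Signals near the floor, such as the Bex1 probe at base 240 in bone marrow, give bounds only.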
